A study of Mus musculus with 15 samples.

Results

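The 37 genes described here are transporter, endocytosis, brush border and enzyme genes of the kidney's proximal tubule, taken from a list of gene names and followed across 4 mouse tissues. All 37 were found among the 20145 genes that array probes could be matched to, and all 37 were among the 15622 genes tested. RNA of 15 samples was hybridised to 1 one-colour Agilent array each, all from female FVB/N mice. Wild-type FVB/N recipients aged 7 to 9 weeks were given monocrotaline, which injures the liver, into the abdominal cavity in 2 doses of 70 mg/kg, 2 weeks apart. They then received 1000000 hepatocytes under the kidney capsule, from FVB/N donors of 8 to 20 weeks that carried a human α1-antitrypsin (hA1AT) transgene. At days 250 to 300, at a mouse age of 48 to 55 weeks, 4 samples each were taken of their kidney (Host kidney), of their injured liver (Host liver) and of the ectopic liver tissue cut out of the kidney under a microscope (Neo-liver). The livers of 3 normal mice aged 20 weeks are the Control liver group, so age, injury and transplantation all separate it from the host tissues. The numbers 1 to 4 in the sample titles are used below to name arrays, and arrays of the same number were taken to come from the same mouse because their deviations from the group means ran together.

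The proximal tubule takes back most of the glucose, phosphate, amino acids, bicarbonate and small proteins that the glomerulus filters. Cotransporters in its apical brush border draw these solutes into the cell with sodium, basolateral carriers pass them on to the blood, and organic ion transporters secrete drugs and waste in the other direction. Its early, convoluted part carries high-capacity transporters, and its late, straight part, which lies in the deep cortex and outer medulla, carries high-affinity ones. Hepatocytes share some of these genes, since they also handle organic anions, amino acids and dicarboxylates.

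Many proximal tubule promoters are known to be bound by HNF1 and HNF4 factors, which hepatocytes also make, and so the promoters of the members were searched for exact matches to part of the HNF1 motif, GTTAATNAT, and to an HNF4 element, CAAAGTCCA, on both strands of the 300 bases from 250 before to 50 after the start site. The RefSeq promoter table (build GRCm38.p6) held 29 of the 37 members. These members have 43 promoter windows, since some genes have several start sites. The HNF1 letters occurred in 3 of the 43, 1 of Cltrn and 2 overlapping ones of Hsd3b4, against 0.801% of all 32817 windows, and the HNF4 letters in 2 of the 43, of Slc3a1 and Aadat, against 0.475%. The following sequences show the 250 bases before the start site for a gene that was below background in Control liver (Cltrn), a gene above background in every tissue (Slc3a1) and a gene close to background in all liver tissue (Aadat), with the match in capitals. All 3 are on the plus strand and are written 5′ to 3′, at chrX:164089937-164090186, chr17:85028097-85028346 and chr8:60505874-60506123.
Cltrn: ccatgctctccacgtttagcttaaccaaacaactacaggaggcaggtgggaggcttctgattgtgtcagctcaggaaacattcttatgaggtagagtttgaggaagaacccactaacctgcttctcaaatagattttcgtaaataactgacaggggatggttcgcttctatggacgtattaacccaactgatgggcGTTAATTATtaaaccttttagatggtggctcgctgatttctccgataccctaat
Slc3a1: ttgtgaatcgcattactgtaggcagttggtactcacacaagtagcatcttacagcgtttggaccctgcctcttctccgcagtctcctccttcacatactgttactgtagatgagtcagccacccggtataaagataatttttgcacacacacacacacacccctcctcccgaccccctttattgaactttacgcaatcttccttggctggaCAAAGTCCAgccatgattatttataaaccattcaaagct
Aadat: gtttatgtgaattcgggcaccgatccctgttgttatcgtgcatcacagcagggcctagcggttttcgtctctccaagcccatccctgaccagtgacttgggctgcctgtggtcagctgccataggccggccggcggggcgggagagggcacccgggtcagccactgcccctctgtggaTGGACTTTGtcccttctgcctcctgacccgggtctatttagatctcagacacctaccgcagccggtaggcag
The match began 54 bases before the start site in Cltrn, 39 before it in Slc3a1 and 72 before it in Aadat, where it lay on the minus strand. A match is a match of letters and no measurement of binding, and the 2 genes with the HNF4 letters differed in liver tissue, as the levels below show.

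Levels are log2 processed signals minus the 75th percentile of the same array, so 0 stands for that percentile, and differences are log2 differences ± SE from 1 limma fit of all 15 arrays, called at a Benjamini-Hochberg adjusted p under 0.05 over 15622 genes. Over the arrays that percentile corresponded to signals of 287 to 875, 46.4% to 67.7% of probes were well above background, and 3 or 4 arrays per group limit the precision. The tissue labels matched their markers. Alb, the albumin gene of hepatocytes, lay at 10.52, 10.01, 9.995 and 9.91 on the Neo-liver arrays, at 10.65, 10.73 and 10.74 in Control liver and at -0.31, 0.49, -0.58 and -0.08 in Host kidney. Umod, the uromodulin gene of the thick ascending limb, lay at 9.38, 8.84, 8.48 and 8.95 in Host kidney and still at 5.83, 5.73, 4.56 and 6.22 in Neo-liver, and it was above background on 0 of 3 Control liver arrays. All Host kidney samples were on a slide of their own, Neo-liver shared a slide with Control liver, and Host liver was spread over 2 more, so slide and tissue cannot be told apart except between Neo-liver and Control liver.

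All 37 members were above background on all 4 Host kidney arrays and 35 on all 4 Neo-liver arrays, the exceptions being Slc7a13 (1 array) and Aadat (2 arrays). In Control liver 11 were above background on every array and 24 on none, and in Host liver 11 on every array and 17 on none. The 11 with liver signal were Slc34a1, Slc22a6, Slc22a7, Slc7a7, Slc7a8, Slc3a1, Slc4a4, Slc13a3, Slc17a1, Slc17a3 and Miox. For Slc34a1 this rests on 1 probe, as its other probe was below background on every Control liver array. Host kidney against Host liver placed the members in the 2 organs of the same mice. All 37 were called higher in Host kidney, where 31.2% of all genes tested were higher and 39.5% lower, with a median difference of 9.07 against -0.14 over all genes. A probe was kept if well above background on every array of at least 1 group, which Slc7a13 and Aadat met in Host kidney alone. When 2 such groups were asked for, both dropped out and 35 members were called higher. Members other than the 11 with liver signal were kept only through Host kidney or Neo-liver. Either filter therefore favoured members that are higher there than in liver. The smallest differences were those of Slc3a1 (1.52 ± 0.20, adjusted p = 1.05e-05) and Slc17a3 (1.59 ± 0.16), both made by liver too. The largest fitted difference was that of Mep1a at 12.19 ± 0.40, a gene above background on 1 Host liver array. Since 17 members were above background on no Host liver array, the median and the largest differences depend partly on the array's floor. The members varied less among Host kidney arrays (median SD 0.27 on the log2 scale) than among Neo-liver arrays (median SD 0.71).

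**Figure D1:**
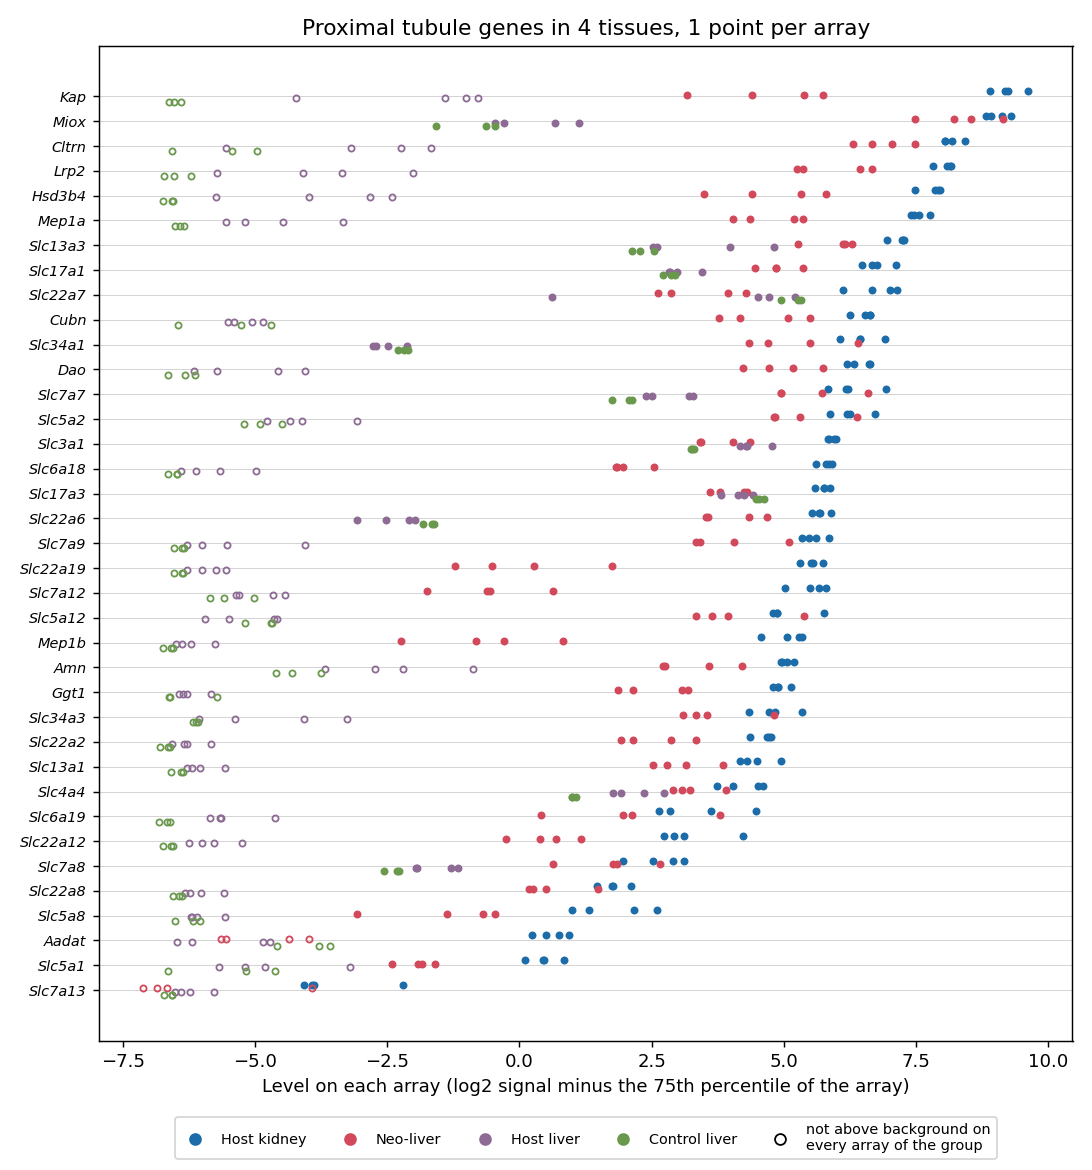
Level of each of the 37 genes on each array (horizontal axis, log2 signal minus the 75th percentile of the array), ordered by the Host kidney mean, with 1 point per array and a colour per tissue. Open points mark groups not above background on every array. Host kidney points lie right of all Host liver and Control liver points for every gene, and Neo-liver points lie between them for most genes. Neo-liver points overlap the liver points or lie left of them for Slc22a7, Slc17a3, Slc3a1, Slc7a13 and Aadat. They reach into the Host kidney range for Miox, Slc22a8, Slc34a1, Slc34a3, Slc4a4, Slc5a2, Slc5a12, Slc6a19, Slc7a7, Slc7a8 and Slc7a13.

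Neo-liver against Host kidney asked how much of the tubule programme the ectopic tissue held beside the organ it was cut from. Of the 37 members 29 were called lower in Neo-liver and 0 higher, where 29.4% of all genes were lower and 23.2% higher, and 28 of the 29 differed at least 2-fold. The median difference was -1.88, against -0.086 over all genes. The 29 include Slc7a13 and Aadat, which passed the filter only through Host kidney, the group where they are high. With the filter that asks for 2 groups 27 were called lower. The 8 not called were Cltrn, Miox, Slc34a3, Slc5a12, Slc5a2, Slc6a19, Slc7a7 and Slc7a8, whose differences ran from -1.32 ± 0.58 to -0.70 ± 0.39 (adjusted p from 0.0524 to 0.155). With the mouse as a random block 35 were called lower, Slc34a3, Slc5a12, Slc5a2, Slc6a19, Slc7a7 and Slc7a8 among them, and without Neo-liver array 2 the same number was reached, again with these 6. With the mouse as a fixed block 33 were called, and Slc34a3 (adjusted p = 0.0542) and Slc7a7 (adjusted p = 0.0934) were not among them. In bulk tissue, fewer tubule cells and less RNA per cell cannot be told apart.

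Neo-liver against Control liver and against Host liver asked the converse, what the ectopic tissue held beyond liver. Against Control liver 33 members were called higher and 1 lower, where 20.4% of all genes were higher and 29.7% lower, and the median was 7.43 against -0.15 over all genes. Against Host liver 32 were called higher and 1 lower, with 17.1% of all genes higher and 31% lower, and the median was 6.53 against -0.21. These comparisons share the Neo-liver arrays with the one above, and their medians rest partly on members below background in liver. Members without liver signal on every array were kept only through Host kidney or Neo-liver, so the filter favoured these counts of members called higher. The exceptions were few. Slc17a3, a urate and organic anion transporter gene, fell by 0.56 ± 0.18 against Control liver (adjusted p = 0.0181), and Slc3a1 fell by 0.58 ± 0.20 against Host liver (adjusted p = 0.0267). Slc22a7, Aadat and Slc7a13 were called in neither. Both falls were small, and neither was called after quantile normalization (adjusted p = 0.504 for Slc17a3 and 0.450 for Slc3a1). Each was also lost without single arrays, namely Control liver 2 for Slc17a3 (adjusted p = 0.0632), and Host liver 1, Neo-liver 1 or Neo-liver 3 for Slc3a1 (adjusted p from 0.0761 to 0.0801), as was the latter with the mouse as a fixed block (adjusted p = 0.0542).

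**Figure D2:**
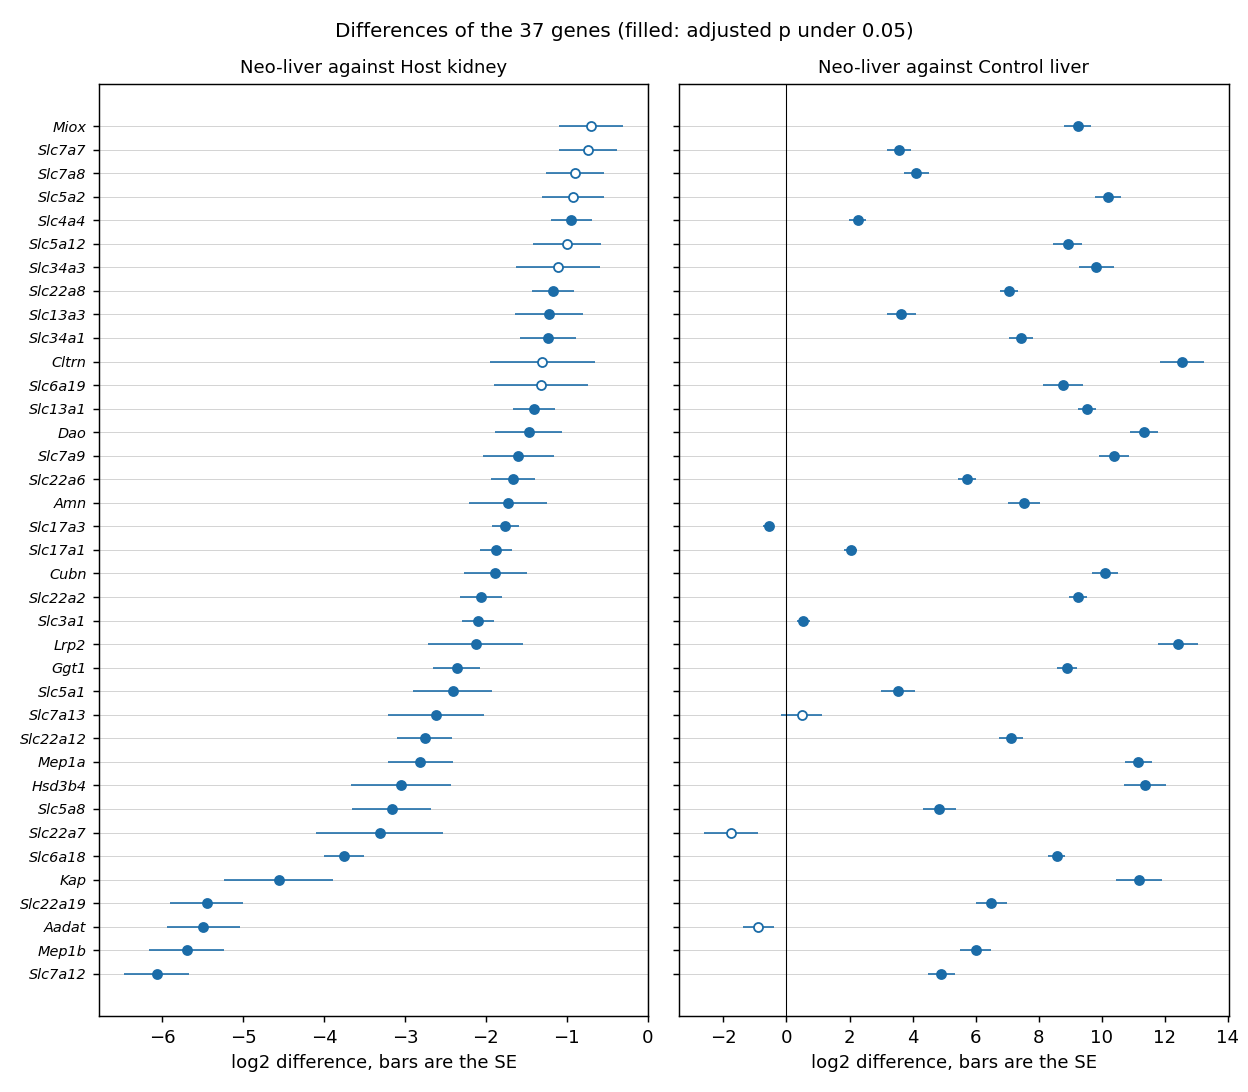
Log2 difference ± SE of each of the 37 genes in Neo-liver against Host kidney (left) and against Control liver (right), with filled points for adjusted p under 0.05. All 37 differences from kidney are below 0, and all but 3 differences from Control liver are above it; fitted values against genes below background in liver are not bounds.

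To set each gene on a common footing, the share of the Host kidney signal was computed on the linear scale as the Neo-liver signal above the Control liver mean, in percent of the Host kidney mean above it. A share is given where the Host kidney mean was at least 2-fold the Control liver mean, which held for all 37 members. The median over members was 15.4%, 40.5%, 21.3% and 34.4% on Neo-liver arrays 1 to 4, which averages to 27.9 ± 11.6% (SD, n = 4); in Host liver the same measure lay at 0.0167% to 0.0525%. Array 2 held the highest share of 25 members and array 4 that of 9, while array 3 held the lowest of 21 and array 1 that of 15. Across the 37 members Spearman's rho between the shares on different Neo-liver arrays was 0.745 to 0.916, a description only, since all shares use the same Host kidney and Control liver means. Over the members the mean share ran from 66.6 ± 30.7% for Miox down to -33.3 ± 8.76% for Slc22a7. A share below 0 means a Neo-liver signal below the Control liver mean. Slc22a7 and Slc17a3 (-23.8 ± 12.3%) had Host kidney means only 3.02-fold and 2.30-fold the Control liver mean. For members with liver signal the share cannot tell kidney signal from a changed liver level. It was above 50% for 6, from 10% to 50% for 22 and under 10% for 9. Without array 2 it was above 50% for 1, Miox, from 10% to 50% for 26 and under 10% for 10.

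**Figure D3:**
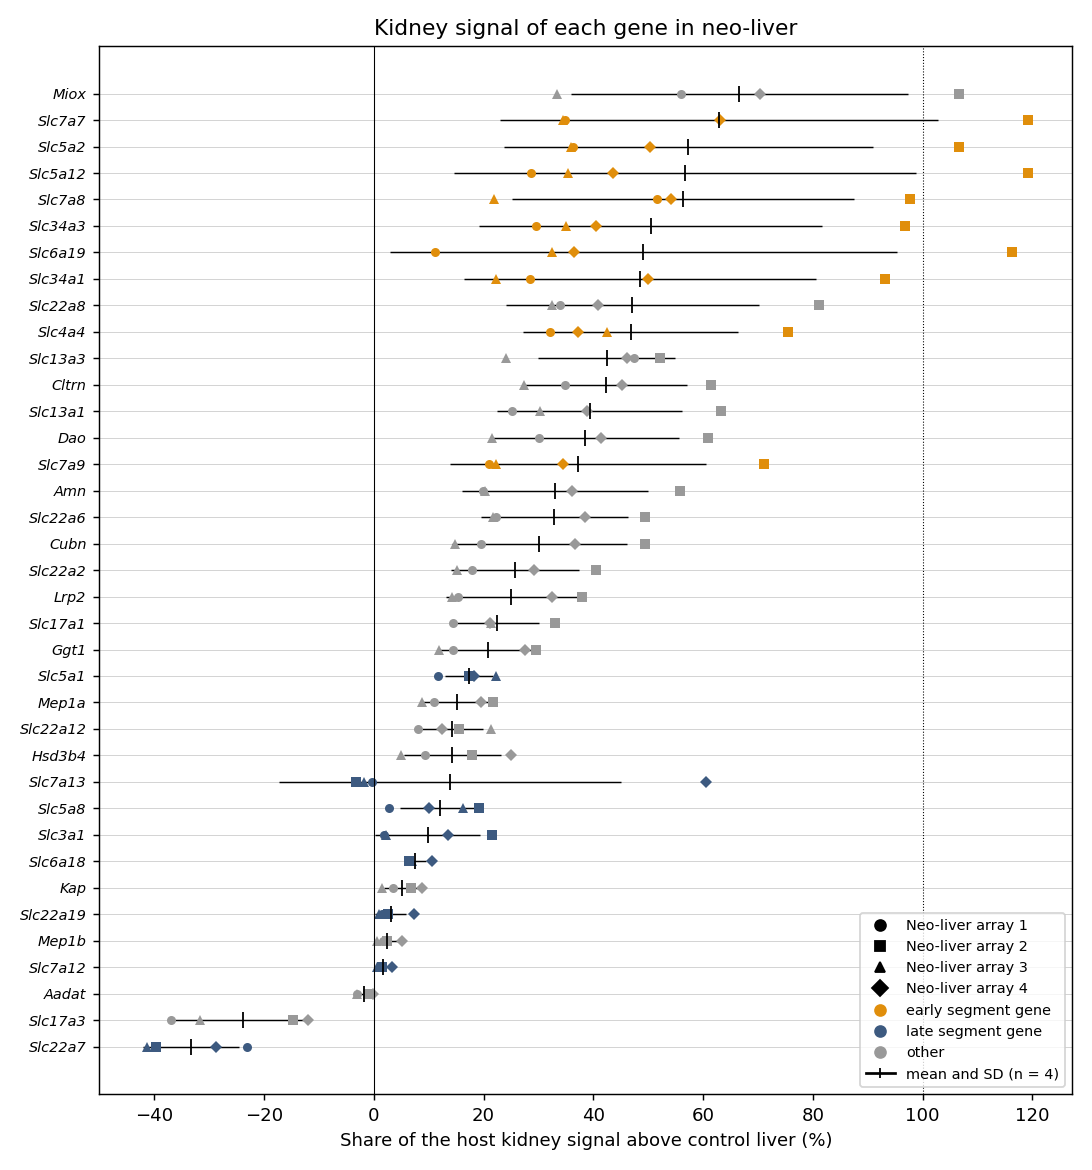
Share of the Host kidney signal above Control liver (horizontal axis, percent) of each gene on the 4 Neo-liver arrays, with the mean and SD, ordered by mean share; 0 is the Control liver level and 100 the Host kidney level. Early segment genes (orange, means 37.2% to 62.9%) lie above late segment genes (blue, means -33.3% to 17.4%), and array 2 (squares) is farthest right for 25 genes. The segment lists were drawn up with earlier results of these data in view, so their separation is a description only.

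The phosphate cotransporter genes kept mean shares of 48.5 ± 32.1% (Slc34a1) and 50.45 ± 31.2% (Slc34a3) of the kidney signal. Without Neo-liver array 2 these were 33.55% and 35.0%. Slc34a1 encodes the main sodium-phosphate cotransporter of the brush border. It lay at 6.44, 6.92, 6.07 and 6.44 on Host kidney arrays 1 to 4, at 4.70, 6.40, 4.34 and 5.50 in Neo-liver, at -2.77, -2.12, -2.49 and -2.71 in Host liver and at -2.30, -2.18 and -2.10 in Control liver. Neo-liver array 2 reached the kidney range and the other 3 did not. Slc34a1 fell by 1.23 ± 0.35 against Host kidney (adjusted p = 0.00939). Its other probe, which was below background on every Control liver array but above it on 2 of 4 Host liver arrays, fell by a like amount (-1.18 against -1.23). Slc34a3, a second phosphate cotransporter gene, lay at 4.72, 5.35, 4.84 and 4.34 in Host kidney and 3.10, 4.81, 3.34 and 3.56 in Neo-liver. Again array 2 alone lay within the kidney range, and the difference was -1.11 ± 0.52 (adjusted p = 0.0882, and 0.0327 with the mouse as a random block). Against Control liver Slc34a3 was at least 270.4-fold higher. Here and below, "at least" sets a gene below background on all arrays of a group at the lowest signal called above background there, or at its own signal where higher.

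The glucose cotransporter genes differed between each other. Slc5a2 encodes the high-capacity glucose cotransporter of the early segment, the target of gliflozin drugs. Its levels were 6.25, 6.73, 6.19 and 5.87 in Host kidney and 4.83, 6.39, 4.82 and 5.30 in Neo-liver, and the groups overlapped through array 2. The difference of Slc5a2 was -0.93 ± 0.39 (adjusted p = 0.0583, 0.0105 with the mouse as a random block), and it was at least 838-fold higher than in Control liver. Slc5a1, the gene of the high-affinity glucose cotransporter of the late segment, lay at 0.11, 0.47, 0.84 and 0.44 in Host kidney and -2.42, -1.92, -1.59 and -1.84 in Neo-liver. These groups lay well apart, and Slc5a1 fell by 2.41 ± 0.49 (adjusted p = 0.00106).

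The lactate and monocarboxylate cotransporter genes also differed between each other. Slc5a12, the low-affinity and early form, lay at 4.87, 5.77, 4.79 and 4.86 in Host kidney and 3.34, 5.39, 3.64 and 3.94 in Neo-liver. Its Neo-liver array 2 was above 3 of the 4 kidney arrays, and its difference was -0.997 ± 0.42 (adjusted p = 0.0622, 0.0143 with the mouse as a random block). Slc5a8, the high-affinity and late form, lay at 0.99, 2.17, 2.60 and 1.32 in Host kidney and -3.06, -0.46, -0.68 and -1.37 in Neo-liver. Slc5a8 fell by 3.16 ± 0.49 (adjusted p = 0.000119), with every Neo-liver array below every kidney array, and array 1 lowest in both tissues.

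Among the neutral amino acid transporters, Slc6a19 encodes the broad transporter of the early segment, and Slc6a18 a relative found mainly in the late segment. Slc6a19 lay at 2.64, 4.47, 3.62 and 2.85 in Host kidney and 0.42, 3.80, 1.96 and 2.13 in Neo-liver, where array 2 was high and array 1 low by more than 3 on the log2 scale. Its difference was -1.32 ± 0.58 (adjusted p = 0.0706, 0.0227 with the mouse as a random block). Slc6a18 lay at 5.92, 5.61, 5.86 and 5.80 in Host kidney and 1.83, 1.84, 1.95 and 2.55 in Neo-liver, with arrays 1 to 3 nearly level. Slc6a18 fell by 3.75 ± 0.25 (adjusted p = 3.96e-08) and kept 7.54 ± 1.99% of the kidney signal against 49.1 ± 46.2% for Slc6a19, whose mean was 26.7% without array 2. Cltrn encodes collectrin, the partner that brings both transporters to the membrane. Cltrn lay at 8.42, 8.18, 8.05 and 8.06 in Host kidney and 6.67, 7.48, 6.31 and 7.04 in Neo-liver. The groups did not overlap, yet the difference of -1.30 ± 0.65 was not called (adjusted p = 0.107, and 0.00356 with the mean of its probes).

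The early and late genes of these 3 pairs, which were put together after their values had been seen, were also set against each other within each mouse; because of that choice no p-value is given. The log2 ratio of Slc5a2 to Slc5a1 was higher in Neo-liver than in Host kidney by 1.11, 2.04, 1.06 and 1.72 on arrays 1 to 4. That of Slc5a12 to Slc5a8 was higher by 2.52, 2.24, 2.13 and 1.77. That of Slc6a19 to Slc6a18 was higher by 1.86, 3.10, 2.25 and 2.53, so in each pair the early gene lay closer to its kidney level than the late one in 4 of 4 mice.

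**Figure D4:**
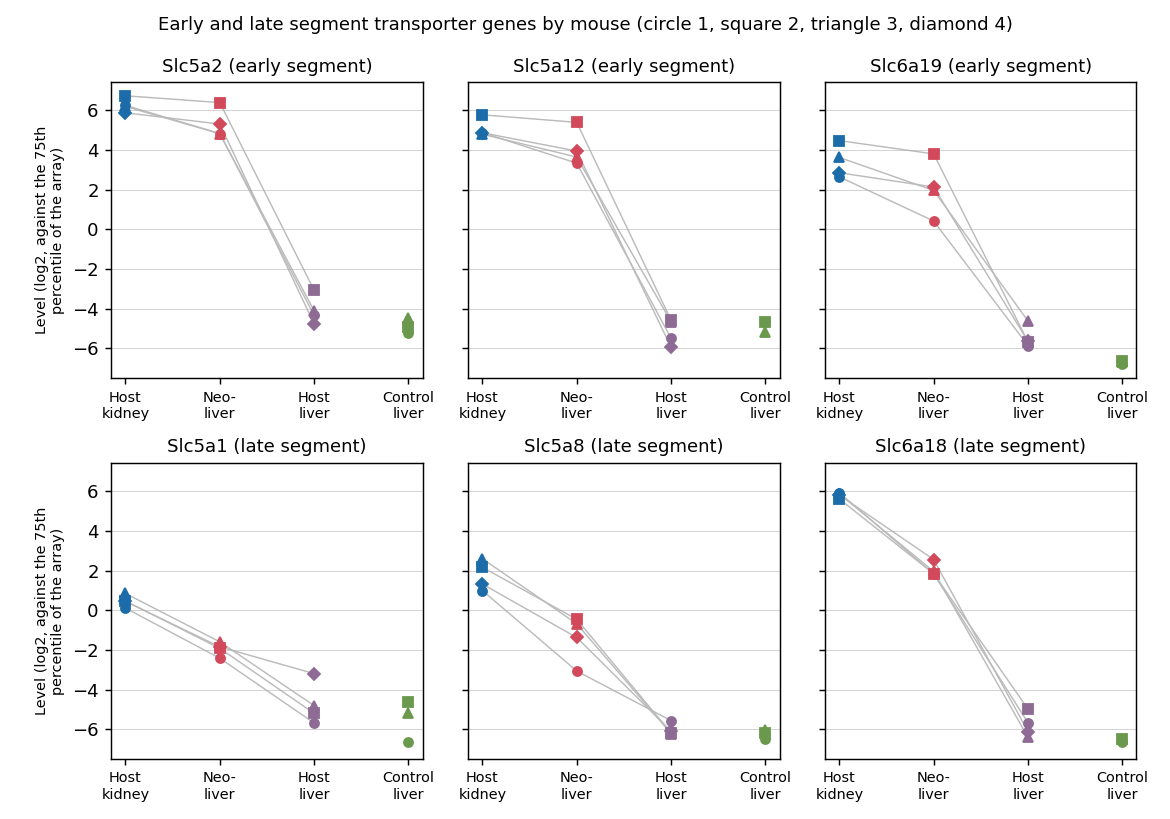
Levels (vertical axis, log2 against the 75th percentile of the array) of 3 early segment genes (top) and their late segment relatives (bottom) in the 4 tissues, with 1 marker per array and grey lines joining arrays of the same number; control livers are other mice. From Host kidney to Neo-liver the early genes drop less than the late ones, and the square (mouse 2) stays near its kidney level for all 3 early genes. The pairs were put together after their values had been seen.

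The cystine transporter is made of a light chain, encoded by Slc7a9, and a heavy chain, encoded by Slc3a1. Slc7a9 lay at 5.62, 5.87, 5.47 and 5.36 in Host kidney and 3.34, 5.10, 3.42 and 4.05 in Neo-liver and fell by 1.60 ± 0.44 (adjusted p = 0.00795). It was below background on every liver array. Slc3a1, by contrast, was above background everywhere, at 5.86, 5.95, 5.83 and 5.99 in Host kidney, 3.41, 4.36, 3.43 and 4.04 in Neo-liver, 4.79, 4.18, 4.29 and 4.30 in Host liver and 3.25, 3.27 and 3.31 in Control liver. Host liver was thus above Control liver on every array, by 1.11 ± 0.21 (adjusted p = 0.00268), and Neo-liver overlapped it. Slc3a1 fell by 2.10 ± 0.20 against Host kidney (adjusted p = 1.2e-06). Its rise of 0.54 ± 0.21 against Control liver (adjusted p = 0.0489) was lost with the mouse as a random block (adjusted p = 0.0793), and without any 1 Control liver array or Neo-liver array 2 or 4 (adjusted p from 0.0934 to 0.129).

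Slc7a7 and Slc7a8 encode basolateral light chains that release amino acids to the blood. Slc7a7 lay at 6.18, 6.93, 5.84 and 6.22 in Host kidney, 4.96, 6.59, 4.94 and 5.72 in Neo-liver, 3.20, 2.39, 2.50 and 3.29 in Host liver and 1.76, 2.13 and 2.07 in Control liver. Slc7a8 lay at 2.92, 3.11, 1.96 and 2.52 in Host kidney and 1.77, 2.66, 0.65 and 1.84 in Neo-liver. For both, Neo-liver overlapped Host kidney. The differences were -0.74 ± 0.35 (adjusted p = 0.0955, 0.0484 with the mouse as a random block) for Slc7a7 and -0.90 ± 0.36 (adjusted p = 0.0524, 0.0148 with the block) for Slc7a8.

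Slc7a12 and Slc7a13 encode light chains of the same family, Slc7a13 being the late segment partner of the Slc3a1 product. Slc7a12 lay at 5.79, 5.50, 5.03 and 5.67 in Host kidney and -0.61, -0.56, -1.75 and 0.63 in Neo-liver. It was the member furthest below kidney, falling by 6.07 ± 0.40 (adjusted p = 3.35e-08), although still at least 13.97-fold above Control liver. Slc7a13 lay near background even in kidney, at -3.92, -3.89, -4.08 and -2.20, and at -6.66, -7.11, -6.86 and -3.92 in Neo-liver. Array 4 was the high one in both tissues, and it was the only Neo-liver array above background. Slc7a13 fell by 2.62 ± 0.60 against Host kidney (adjusted p = 0.00236), a call lost with normexp background correction (adjusted p = 0.0899). Its probe was kept only through Host kidney, so the filter favoured this fall. Its shares of -0.371%, -3.21%, -1.73% and 60.6% show that the mean of 13.8% rests on array 4, without which it was -1.77%.

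The organic anion and cation transporter genes covered nearly the whole range. Slc22a6 and Slc22a8 encode the basolateral organic anion exchangers that take up drugs such as diuretics. Slc22a6 lay at 5.68, 5.68, 5.90 and 5.54 in Host kidney and 3.56, 4.69, 3.53 and 4.34 in Neo-liver and fell by 1.67 ± 0.27 (adjusted p = 0.000182). Slc22a8 lay at 1.77, 2.12, 1.76 and 1.46 and 0.25, 1.50, 0.18 and 0.51 and fell by 1.17 ± 0.26 (adjusted p = 0.00193). Both kept a fair part of the kidney signal, 32.9 ± 13.4% for Slc22a6 and 47.1 ± 23.01% for Slc22a8. Slc22a12, the urate reabsorption transporter gene, lay at 2.75, 2.93, 4.24 and 3.10 in Host kidney and -0.25, 0.70, 1.16 and 0.39 in Neo-liver and fell by 2.75 ± 0.34 (adjusted p = 1.7e-05). Mouse 3 was highest for Slc22a12 in both tissues.

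Slc22a19, an organic anion exchanger gene of the late segment brush border, lay at 5.74, 5.51, 5.30 and 5.55 in Host kidney and -0.51, 0.28, -1.22 and 1.75 in Neo-liver. It fell by 5.45 ± 0.45 (adjusted p = 3.48e-07) and kept 3.05 ± 2.87%, with the highest share on array 4, without which the mean was 1.66%. Slc22a7 encodes an organic anion transporter that hepatocytes also make. Slc22a7 lay at 7.02, 6.66, 6.12 and 7.14 in Host kidney, 4.29, 2.86, 2.61 and 3.94 in Neo-liver, 5.22, 4.51, 0.61 and 4.72 in Host liver and 5.27, 5.34 and 4.95 in Control liver. Every Neo-liver array was below every Control liver array, and Host liver array 3 stood far below the other 3. Slc22a7 fell by 3.31 ± 0.78 against Host kidney (adjusted p = 0.00306), while the differences of -1.76 ± 0.85 from Control liver (adjusted p = 0.0995) and -0.34 ± 0.78 from Host liver (adjusted p = 0.742) were not called. Without Host liver array 3 the latter was -1.39 (adjusted p = 0.0114). Slc22a19 and Hsd3b4 belong to families of close relatives, and hybridisation of their probes to a relative was not tested.

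The endocytosis receptor complex, which recovers filtered proteins and vitamins, is built from megalin (Lrp2), cubilin (Cubn) and amnionless (Amn). Lrp2 lay at 8.15, 8.10, 7.82 and 8.16 in Host kidney and 5.37, 6.67, 5.26 and 6.44 in Neo-liver and fell by 2.12 ± 0.58 (adjusted p = 0.00777). Cubn lay at 6.63, 6.64, 6.25 and 6.53 and 4.17, 5.51, 3.77 and 5.08 and fell by 1.88 ± 0.39 (adjusted p = 0.00115). Amn lay at 5.06, 5.19, 4.98 and 4.95 and 2.73, 4.21, 2.76 and 3.58 and fell by 1.73 ± 0.48 (adjusted p = 0.00825). The 3 genes of the complex kept like shares, 25.04 ± 11.98% for Lrp2, 30.1 ± 15.9% for Cubn and 32.98 ± 16.9% for Amn, and arrays 2 and 4 were the high ones for each. Against Control liver Lrp2 was at least 1269-fold and Cubn at least 515-fold higher, and Amn rose by 7.54 ± 0.52.

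Of the brush border enzymes, Mep1a and Mep1b encode the subunits of the metalloprotease meprin. Mep1a lay at 7.77, 7.55, 7.41 and 7.47 in Host kidney and 4.36, 5.36, 4.04 and 5.20 in Neo-liver and fell by 2.81 ± 0.40 (adjusted p = 6.15e-05). Mep1b lay at 5.06, 5.30, 4.58 and 5.34 and -0.82, -0.29, -2.23 and 0.83 and fell by 5.70 ± 0.46 (adjusted p = 2.88e-07). The subunit genes therefore kept unlike shares, 15.2 ± 6.39% for Mep1a and 2.44 ± 1.96% for Mep1b (1.52% without array 4). Ggt1, whose enzyme splits glutathione at the brush border, lay at 5.15, 4.89, 4.80 and 4.90 in Host kidney and 2.15, 3.19, 1.88 and 3.08 in Neo-liver. Ggt1 fell by 2.36 ± 0.29 (adjusted p = 1.67e-05) and was at least 124-fold higher than in Control liver.

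Miox, which encodes the oxygenase that starts inositol breakdown, kept the highest share. It lay at 9.29, 9.13, 8.83 and 8.93 in Host kidney, 8.22, 9.15, 7.48 and 8.55 in Neo-liver, -0.46, 0.68, -0.29 and 1.12 in Host liver and -0.64, -0.46 and -1.57 in Control liver. Array 2 was within the kidney range, and the difference from Host kidney was -0.70 ± 0.39 (adjusted p = 0.155). Dao, for the peroxisomal D-amino acid oxidase, lay at 6.63, 6.62, 6.20 and 6.32 in Host kidney and 4.73, 5.74, 4.24 and 5.18 in Neo-liver and fell by 1.47 ± 0.41 (adjusted p = 0.0086). Dao was at least 652-fold higher than in Control liver. Kap, the kidney androgen-regulated protein gene, lay at 9.62, 9.19, 8.90 and 9.23 in Host kidney and at 4.40, 5.38, 3.17 and 5.74 in Neo-liver. Kap fell by 4.56 ± 0.67 (adjusted p = 8.24e-05) and was still at least 530.4-fold above Control liver. Aadat, whose aminotransferase makes kynurenic acid, lay at 0.94, 0.51, 0.24 and 0.75 in Host kidney, -5.64, -4.35, -5.55 and -3.99 in Neo-liver and -3.57, -3.79 and -4.58 in Control liver. It was near background in all liver tissue and fell by 5.49 ± 0.46 against Host kidney (adjusted p = 3.6e-07). The probe of Aadat was kept only through Host kidney, the group where it is high, so the filter favoured this fall.

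The other 7 members were all called lower in Neo-liver than in Host kidney, from -3.05 ± 0.62 for the steroid dehydrogenase family gene Hsd3b4 to -0.94 ± 0.26 for the bicarbonate cotransporter gene Slc4a4. Between them lay Slc22a2 (organic cations, -2.06 ± 0.26), Slc17a1 and Slc17a3 (urate and organic anions, -1.88 ± 0.20 and -1.76 ± 0.16), Slc13a1 (sulfate, -1.41 ± 0.26) and Slc13a3 (dicarboxylates, -1.22 ± 0.42). The call of Slc13a3 was lost when any of Host kidney arrays 1, 2 and 3, or the third Neo-liver array, was left out (adjusted p from 0.0516 to 0.0811). Slc13a3, Slc17a1, Slc17a3 and Slc4a4 had liver signal of their own. In the order of levels over the tissues, 33 of the 37 members had Neo-liver called above Control liver, and Slc3a1 was the member with Host liver called above both other liver tissues.

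By segment, the 9 early members (Slc5a2, Slc5a12, Slc6a19, Slc34a1, Slc34a3, Slc4a4, Slc7a7, Slc7a8 and Slc7a9) had median shares of 29.5%, 97.7%, 34.5% and 43.7% on Neo-liver arrays 1 to 4. The 8 late members (Slc5a1, Slc5a8, Slc6a18, Slc7a12, Slc7a13, Slc22a7, Slc22a19 and Slc3a1) had 1.70%, 4.50%, 1.54% and 10.2%. The early median was above the late one on all 4 arrays, with means of 51.3 ± 31.4% and 4.49 ± 4.06% (SD, n = 4), and no gene mean of one list reached into the range of the other. Array 2 was the highest for the early genes and array 4 for the late ones. Without array 2 the early mean was 35.9%, and without array 4 the late mean was 2.58%. Slc22a7 and Slc3a1 of the late list and Slc34a1, Slc4a4, Slc7a7 and Slc7a8 of the early list had liver signal. Their shares also depend on the liver level. Against Host kidney 3 of 9 early members fell (Slc34a1, Slc4a4 and Slc7a9) and 8 of 8 late members, beside 29.4% of all genes, with median differences of -0.997 and -3.24. The early count depended on the setting: all 9 were called lower with the mouse as a random block and also without Neo-liver array 2, 8 with normexp, and 7 with quantile normalization or the mouse as a fixed block. The late count was 8 of 8 in these settings except for 7 with normexp. With the filter that asks for 2 groups Slc7a13 dropped out, and 7 of 7 late members were called lower. The lists were drawn up with earlier results of these data in view, which had shown a difference between kidney zones, and they get no test.

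Markers of other nephron parts moved with the members. Of 30 genes from the loop of Henle to the collecting duct 28 fell against Host kidney and 0 rose, among them Slc12a1, the salt cotransporter gene of the thick ascending limb, by 4.78 ± 0.37, and 29 rose against Control liver, led by Umod (at least 998-fold) and the potassium channel gene Kcnj1 (at least 252-fold). Their summed signal, in multiples of the 75th percentile of each array, was 997 to 1414 in Host kidney, 174 to 310 in Neo-liver, 6.16 to 6.72 in Control liver and 3.91 to 6.41 in Host liver. Of 14 podocyte genes 9 fell and 2 rose against Host kidney and 12 rose against Control liver, with sums of 51.5 to 71.0 in Host kidney, 20.3 to 28.6 in Neo-liver, 10.5 to 12.5 in Control liver and 6.22 to 12.1 in Host liver. Of all genes 29.4% fell and 23.2% rose against Host kidney, and 20.4% rose and 29.7% fell against Control liver. In Control liver 18 of the 30 and 3 of the 14 were above background on no array, Umod and Slc12a1 among the former. Measured like the members, the mean share was 25.3 ± 12.8% for the first list (29 genes with a share) and 35.5 ± 9.21% for podocytes (12 genes), near the 27.9 ± 11.6% of the members. The 14 hepatocyte genes were all called higher in Neo-liver than in Host kidney, while 9 were lower and 0 higher than in Control liver, and 8 lower and 0 higher than in Host liver. Against Host liver 31% of all genes were lower and 17.1% higher. Their summed signal was 4104 to 6366 in Neo-liver and 7397 to 7712 in Control liver. The part of residual kidney tissue in the members' signal was not tested.

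Other genes of the proximal tubule gave a wider picture. Of 33 other transporter genes tested 22 fell and 7 rose against Host kidney, and 10 rose and 9 fell against Control liver. Of all genes 29.4% fell and 23.2% rose in the former comparison, and 20.4% rose and 29.7% fell in the latter. Slco1a6 and Slc22a13, organic anion transporter genes, fell by 5.42 ± 0.52 and 5.03 ± 0.32 against Host kidney, whereas Slc38a3, for a glutamine transporter that liver also uses, rose by 3.37 ± 0.41 and fell against Control liver by 2.23 ± 0.44. Their median share was 11.1 ± 8.50% over the 20 genes that have one. Of 21 other brush border and endocytosis genes 14 fell and 2 rose against Host kidney. Ace, for angiotensin converting enzyme, fell by 3.88 ± 0.24 and the aminopeptidase gene Anpep rose by 0.86 ± 0.18. Against Control liver 14 rose and 4 fell, and the microvillus gene Vil1 was at least 114-fold higher. Their median share was 31.5 ± 18.3% over 16 genes.

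Host liver against Control liver asked whether the members differed in the injured livers. Of the 37, 8 were called higher and 1 lower, where 13.3% of all genes were higher and 11.2% lower, so the share of members is not far above that of all genes for rises. The median was 0.76 against 0.074 over all genes. Kap lay at -4.23, -1.01, -0.78 and -1.41 on Host liver arrays 1 to 4 and -6.63, -6.52 and -6.40 in Control liver, where it was below background throughout, and was at least 5.73-fold higher (adjusted p = 0.000805). Lrp2 lay at -5.72, -4.09, -2.002 and -3.36 against -6.73, -6.22 and -6.52, Hsd3b4 at -5.74, -2.82, -3.97 and -2.41 against -6.73, -6.55 and -6.56 and Cltrn at -5.55, -1.68, -2.23 and -3.18 against -6.57, -4.97 and -5.44. In each of these 4 genes array 1 was lowest and arrays 2 to 4 lay higher. Of the 4 Host liver arrays 3 were above background for Kap, Hsd3b4 and Cltrn, and 2 for Lrp2. The difference of Hsd3b4 was not called with the mean of its probes (1.43, adjusted p = 0.153) or with normexp (0.95, adjusted p = 0.106). Host liver array 1 also had the smallest share of probes above background (46.4%, against 49.8% to 51.9% on the other 3), and the part of this in the pattern was not tested.

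Amn rose by 1.85 ± 0.52 (adjusted p = 0.0207), and Mep1a, above background on 1 Host liver array, was called with no fold to give. Slc3a1 and Slc4a4, which liver makes, rose by 1.11 ± 0.21 and 1.18 ± 0.28, and the rise of Slc4a4 was 0.090 (adjusted p = 0.837) with the mean of its probes. Aadat was the gene called lower (adjusted p = 0.0334). It was above background on 2 of 3 Control liver arrays and on 0 of 4 Host liver arrays. With normexp background correction 4 members were called higher and 0 lower, with only these 2 groups in the fit 5 and 0, and with median centring 12 and 1. Amn, Lrp2 and Mep1a were called neither with normexp (adjusted p = 0.0858, 0.0698 and 0.242) nor with only these 2 groups (0.0810, 0.0577 and 0.0507). Single arrays decided several of these calls: Cltrn was lost without Control liver 1 or Host liver 3 (adjusted p = 0.0985 and 0.0535), Amn without Control liver 2 or 3 (0.0822 and 0.0644), and Aadat without Control liver 1 or 2 or Host liver 3 or 4 (0.0843 to 0.127).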

How the data were processed

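Per the file headers, the authors' scanner files hold intensity values from Agilent Feature Extraction 10.10.1.1, whose processed signal had its background subtracted already. The series table that the authors deposited is in log2 and equals the logged processed signals after a shift of each array, to 0.01 or better for 99.8% of probes. Per the labels' protocols, Cy3-labelled cRNA was hybridised.

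Spots of a probe were averaged (3671 control spots left out), giving 55681 probes. Log2 processed signals minus the array's 75th percentile were used. A probe was kept if well above background on every array of at least 1 group (34992 probes, 20391 of them named by RefSeq accession and 14601 unnamed). The probe with the highest mean stood for a gene. No spot was saturated. Differences were tested with limma 3.58.1 in R 4.3.3 (lmFit and eBayes, all 15 arrays, a mean per group, two-sided). The procedure was also run on simulated data, whose arrays were drawn independently. Residuals of the same mouse correlated at 0.347 in the real data, so that run does not cover the pairing. Members, lists and tests were chosen with earlier results of these data known. Full values are given for lead members of each role, for the 3 highest and lowest shares and for members called against the list's direction; from other lists, up to 3 called genes in each direction were allowed.

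Residuals of same-numbered Host kidney and Neo-liver arrays correlated at 0.249 to 0.439 across genes, Host kidney and Host liver at 0.176 to 0.325, and Neo-liver and Host liver at 0.400 to 0.576, each best with its own number in 4 of 4, so numbers were used as mice in the block; nothing in the labels says so, and p-values measure the spread between these samples. Normexp used median spot signals with an offset of 50. Slc22a30, Nherf1 and Acy3 were not matched. Some list genes are not reported here.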

Additional observations from a re-analysis of the deposited data

Results flagged for a closer look

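Of 83 sets of 4 arrays (a member in a host tissue where all arrays were above background), 7 held an array far from the other 3 by Dixon's criterion, which chance meets in about 1 of 20 sets. Levels are log2 against the 75th percentile of the array.

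In Host kidney, array 2 was high for the lactate cotransporter gene Slc5a12 (5.77, others 4.79 to 4.87). Array 4 was low for Slc22a2 (4.36, others 4.69 to 4.75) and for Slc13a3 (6.95, others 7.23 to 7.27), and high for Slc7a13 (-2.20, others -4.08 to -3.89). In Neo-liver, array 4 was high for Slc6a18 (2.56, others 1.83 to 1.95) and array 3 low for Slc13a3 (5.28, others 6.12 to 6.29). In Host liver, array 3 was low for Slc22a7 (0.61, others 4.51 to 5.22). The cause was not tested for any of them.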

How the results depend on the processing

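The counts of members called lower in Neo-liver than in Host kidney (27 to 35), higher in Neo-liver than in either liver, and higher in Host kidney than in Host liver stayed within 1.5 times the values given under every alternative run. Small counts moved. Members lower in Neo-liver than in Control liver were 2 with normexp, 0 with quantile normalization, 2 with only the 2 groups compared, and 0 to 1 without single arrays. Members lower in Neo-liver than in Host liver were 0 with quantile normalization, 0 with the replicate block as a fixed term, 0 with only the 2 groups compared, and 0 to 2 without single arrays. Members higher in Host liver than in Control liver were 4 with normexp, 5 with only the 2 groups compared, 12 with median centring, and 7 to 10 without single arrays. Members lower there were 0 with normexp, 0 with the stricter filter, 0 with only the 2 groups compared, and 0 to 1 without single arrays. No called difference changed sign among the named results. Beside the calls given in the text, the replicate block changed none of the results for single genes that were recomputed. The mean share over members, 27.9%, was 27.1% with the Host kidney array of the same number (the pairing of the replicate block), 22.6% to 32.1% over all alternatives run, and 23.4% without the 11 members above background on every Control liver array, an alternative added after seeing the data. The median over all genes of Neo-liver against Host liver was -0.21, -0.071 with quantile normalization and -0.41 with median centring. Genes below background in liver have only a bound there, and signal over background, not depth, limits them.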

Other observations

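The enzyme and transcription factor genes of the proximal tubule, many of which hepatocytes share, went in both directions. Of 19 enzyme genes tested 9 fell and 2 rose in Neo-liver against Host kidney, and 8 rose and 7 fell against Control liver. Of all genes 29.4% fell and 23.2% rose in the former comparison, and 20.4% rose and 29.7% fell in the latter, so some of the counts in this paragraph are near those of all genes. Napsa, the aspartic protease gene of lung and kidney, fell by 4.91 ± 0.39 against Host kidney and rose by 7.30 ± 0.42 against Control liver, whereas Acsm3, for a medium-chain acyl-CoA synthetase, rose by 5.52 ± 0.27 against Host kidney and fell by 1.60 ± 0.29 against Control liver. Of 10 transcription factor genes 6 fell and 2 rose against Host kidney. Pax8, a regulator of kidney development, fell by 2.19 ± 0.22, and the bile acid receptor gene Nr1h4 rose by 0.59 ± 0.18. Against Control liver Pax8 rose by 3.75 ± 0.23, while Nr1h4 fell by 0.97 ± 0.19 and Hnf4a, a factor of both organs, by 0.62 ± 0.13.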
